A study of Equus asinus with 2 samples.

Results

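CCK, TAC3, SPP1, AQP8, CRYM, APOA1 and RNASE1 are 7 of the 38517 genes counted in single-cell RNA libraries of the fetal donkey (Equus asinus), and all 7 were found in both libraries. They were chosen because their RNA stood far higher in cells rich in AMH, the Sertoli cell hormone that makes the Müllerian ducts regress, than in the other cells of the same libraries. Levels in AMH-rich against other cells are therefore given as a description and support nothing. CCK and TAC3 encode precursors of peptide hormones, and SPP1, APOA1 and RNASE1 encode secreted proteins. AQP8, a membrane channel, and CRYM, a protein of the cytosol, are not secreted.

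One library came from gonads with mesonephros, the transient embryonic kidney beside the forming gonad, at 4 weeks of gestation. The other came from tissue labelled ovary at 8 weeks. The fetuses came from a slaughterhouse, carried no stated treatment, allele or strain, and the sources used here do not give their number or sex. With 1 library per stage no test was possible, all intervals are 95% intervals of counting error, and stage, dissected tissue, animal and library cannot be told apart.

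Sertoli cells enclose the germ cells in the cords of the testis and act on their neighbours through secreted factors. Cholecystokinin, the product of CCK, is best known as a gut and brain peptide that signals through the receptors CCKAR and CCKBR, and neurokinin B, the product of TAC3, signals mainly through TACR3 and is known from the hypothalamic control of reproduction. Both are cut from larger precursors and amidated at their end before they act. Osteopontin, the product of SPP1, is a phosphoprotein of the matrix that binds integrins and CD44 and is also made by macrophages.

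Cells with at least 10 AMH UMIs per 10000 UMIs (unique molecular identifiers, the counted RNA copies) were called AMH-gated. They were 860 of 8912 cells at 4 weeks, 9.65% (9.04 to 10.3), and 1465 of 14590 at 8 weeks, 10.04% (9.56 to 10.5). Their median depth was 14205.5 and 8518 UMIs, against 7386.5 and 5743 in the other cells, and the libraries held 122341903 and 155128130 UMIs in all. Of 10 Sertoli marker genes, 8 stood at least 2-fold higher in gated cells than in other cells in both libraries, and SOX8 and FATE1 did not. The 8 include AMH, which set the gate and was therefore bound to be higher. SOX9, which drives Sertoli fate, stood at 494 and 242 UMIs per 1000000 UMIs (CPM) in gated cells. FOXL2, which defines granulosa cells of the ovary, stood at 0.401 and 0.422 CPM in the gated cells, against 1.13 and 1.73 in other cells. The 6 granulosa markers together summed to 44.3 CPM in gated against 77.7 in other cells at 4 weeks and to 55.7 against 31.8 at 8 weeks. At 8 weeks 1 of the 6, the WNT receptor LGR5, was at least 2-fold higher in gated cells (32.0 against 6.87 CPM), and FST (18.04 against 12.2) and IRX3 (2.44 against 1.62) were higher by less. The labels call the cells of both libraries germ cells, while germ-like cells by marker genes made up 3.66% and 3.78% of the barcodes. In the gated cells 53 and 291 barcodes rested on 1 or 2 AMH UMIs, and 112 and 214 also carried markers of another class, mostly of germ cells (81 and 153). The 8 germ markers together summed to 226 CPM in gated against 160 in other cells at 4 weeks and to 240 against 148 at 8 weeks. None of them was at least 2-fold higher in gated cells. The libraries shared 38 barcode sequences, of which 4 and 6 were gated.

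All 7 genes stood at least 2-fold higher in gated than in other cells in both libraries, as the choice of the genes requires. Of all features tested, 10.8% did so at 4 weeks and 10.5% at 8 weeks. The median log2 ratio of the 7 genes was 5.14 and 4.63, beside −0.23 and −0.19 over all features. Levels below are CPM of the pooled UMIs of a class, first at 4 and then at 8 weeks. They compare cells for 1 gene and are not scaled to gene length.

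CCK was low outside the gated cells at 4 weeks and higher both inside and outside at 8 weeks. In gated cells it stood at 303 CPM (294 to 311) and 754 CPM (742 to 765). The other cells held 4.96 CPM (4.54 to 5.40) and 24.3 CPM (23.5 to 25.2), so that the gated cells stood 61.0-fold (55.7 to 66.9) and 31.0-fold (29.8 to 32.2) higher. The gated cells held 91.0% and 83.2% of all CCK UMIs of their libraries, and 14.3% and 13.8% of all UMIs. After every cell was thinned to 1000 UMIs, 23.6% (20.7 to 26.7) of the gated cells held CCK at 4 weeks and 42.2% (39.4 to 45.05) at 8 weeks, and without thinning 71.5% and 68.2% did. In endothelial-like cells, where Sertoli genes should be silent, the thinned shares were 0.392% (0.127 to 0.911) and 1.03% (0.282 to 2.62), and the unthinned ones 2.43% and 8.23%, at median depths of 8793 and 8255 UMIs. Thinning left out 56 and 275 gated cells with fewer UMIs.

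TAC3 was the 1 gene of the 7 with a lower level at 8 than at 4 weeks in gated cells. It stood there at 1448 CPM (1429.9 to 1466) and 1165 CPM (1150.6 to 1179.6). The other cells held 22.3 and 27.96 CPM, and the gated cells stood 65.0-fold (62.3 to 67.9) and 41.7-fold (40.3 to 43.1) higher. They held 91.5% and 86.9% of all TAC3 UMIs. After thinning, 74.8% (71.6 to 77.7) of the gated cells held TAC3 at 4 weeks and 58.7% (55.9 to 61.6) at 8 weeks, with 1.02% and 1.29% in endothelial-like cells. The lower 8-week share and the lower 8-week level thus go the same way.

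Among the 7 genes SPP1 had the largest ratio between the libraries in gated cells, and macrophage-like cells also held much of it. In gated cells it stood at 808 CPM (795 to 821) and 2569 CPM (2547 to 2590.4). The other cells together held 48.3 and 137 CPM, 16.7-fold (16.2 to 17.3) and 18.8-fold (18.5 to 19.1) lower. Macrophage-like cells stood apart from these, at 1731 CPM (1648 to 1817) in 123 cells at 4 weeks and 1581 CPM (1547 to 1616) in 769 cells at 8 weeks. At 4 weeks this class lay above the gated cells and at 8 weeks below them. The thinned share of gated cells with SPP1 was 47.8% (44.3 to 51.3) at 4 weeks and 80.3% (78.0 to 82.6) at 8 weeks, with 1.17% and 3.09% in endothelial-like cells.

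Defining macrophage genes were low in the gated cells: C1QA stood at 1.83 and 26.3 CPM there and at 26.7 and 136 CPM in the other cells. All 7 macrophage markers together summed to 7.80 and 75.8 CPM in gated cells, none was at least 2-fold higher there than in other cells, and MS4A7 had no UMI in the gated cells at 8 weeks. The macrophage marker gate was met by 3 and 23 gated cells. With the gated cells that met any other class gate left out, SPP1 stood at 920 CPM (903 to 937) and 2899 CPM (2871 to 2926).

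AQP8, which lets water, ammonia and hydrogen peroxide cross membranes, reached 684 CPM (672 to 697) at 4 weeks and 928 CPM (915 to 941) at 8 weeks in gated cells. The other cells held 11.3 and 19.5 CPM, 60.4-fold (56.9 to 64.2) and 47.6-fold (45.7 to 49.6) lower. The gated cells held 90.9% and 88.4% of all AQP8 UMIs. Among all features, AQP8 ranked 29 of 24708 at 4 weeks and 9 of 24283 at 8 weeks by this ratio. After thinning, 48.5% and 51.1% of the gated cells held an AQP8 UMI, against 0.157% and 0.515% of the endothelial-like cells.

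CRYM, which binds thyroid hormone in the cytosol and reduces ketimines, reached 371 CPM (362 to 380) at 4 weeks and 603 CPM (593 to 614) at 8 weeks in gated cells. The other cells held 21.3 and 36.7 CPM, 17.5-fold (16.6 to 18.3) and 16.5-fold (15.9 to 17.004) lower. Steroidogenic-like cells, which carry androgen enzymes, came next at 80.6 CPM (71.4 to 90.7) and 175 CPM (166 to 184). They stood 17.8-fold (14.03 to 22.9) and 14.8-fold (11.6 to 19.3) above endothelial-like cells, while their AMH stood 1.68-fold (1.39 to 2.03) and 1.24-fold (1.06 to 1.46) above. Their marker CYP17A1, an androgen enzyme, was also high in gated cells, at 609 and 971 CPM against 547 and 853 in other cells. Their markers STAR, CYP11A1, INSL3 and FDX1 were lower in gated than in other cells in both libraries. At 4 weeks proximal-tubule-like cells of the mesonephros held CRYM at 46.8 CPM (43.0 to 50.9). After thinning, 31.2% and 43.1% of the gated cells held a CRYM UMI, against 0.861% and 1.29% of the endothelial-like cells.

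APOA1, the main protein of high-density lipoprotein, was spread over more classes. In gated cells it stood at 1300.5 CPM (1284 to 1318) and 2883 CPM (2861 to 2906), with 95.5 and 117 CPM in the other cells. The ratio was 13.6 (13.3 to 13.9) at 4 weeks and 24.7 (24.3 to 25.2) at 8 weeks. Podocyte-like cells of the mesonephros came second at 4 weeks with 547 CPM (514 to 580.1), and steroidogenic-like cells held 361 CPM (341 to 381) and 483 CPM (468 to 498). Both lay above the endothelial-like level of 24.2 and 89.8 CPM. The thinned share of gated cells with APOA1 was 66.4% (63.0 to 69.7) at 4 weeks and 83.2% (80.9 to 85.3) at 8 weeks. In endothelial-like cells it was 2.35% (1.59 to 3.34) at 4 weeks and 10.3% (7.47 to 13.8) at 8 weeks.

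RNASE1, a secreted ribonuclease known from pancreas and vessel walls, reached 151 CPM (146 to 157) at 4 weeks and 286 CPM (279 to 293) at 8 weeks in gated cells. The other cells held 4.29 and 18.1 CPM, 35.3-fold (31.9 to 39.0) and 15.8-fold (15.1 to 16.6) lower. Steroidogenic-like cells held 48.6 CPM (41.5 to 56.6) and 122 CPM (115 to 130.04), which was 5.41% and 12.1% of all RNASE1 UMIs of the libraries. Endothelial-like cells held 1.49 CPM (1.01 to 2.13) and 4.11 CPM (2.60 to 6.16). Per 100 AMH UMIs these were 5.94 (3.97 to 8.59) and 9.16 (5.70 to 14.1), near the 5.53 and 8.57 of the gated cells. Stroma-like cells lay near them too, at 6.79 and 7.59, and steroidogenic-like cells far above, at 115 and 220. What these ratios say about the source of the UMIs was not tested.

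**Figure D1:**
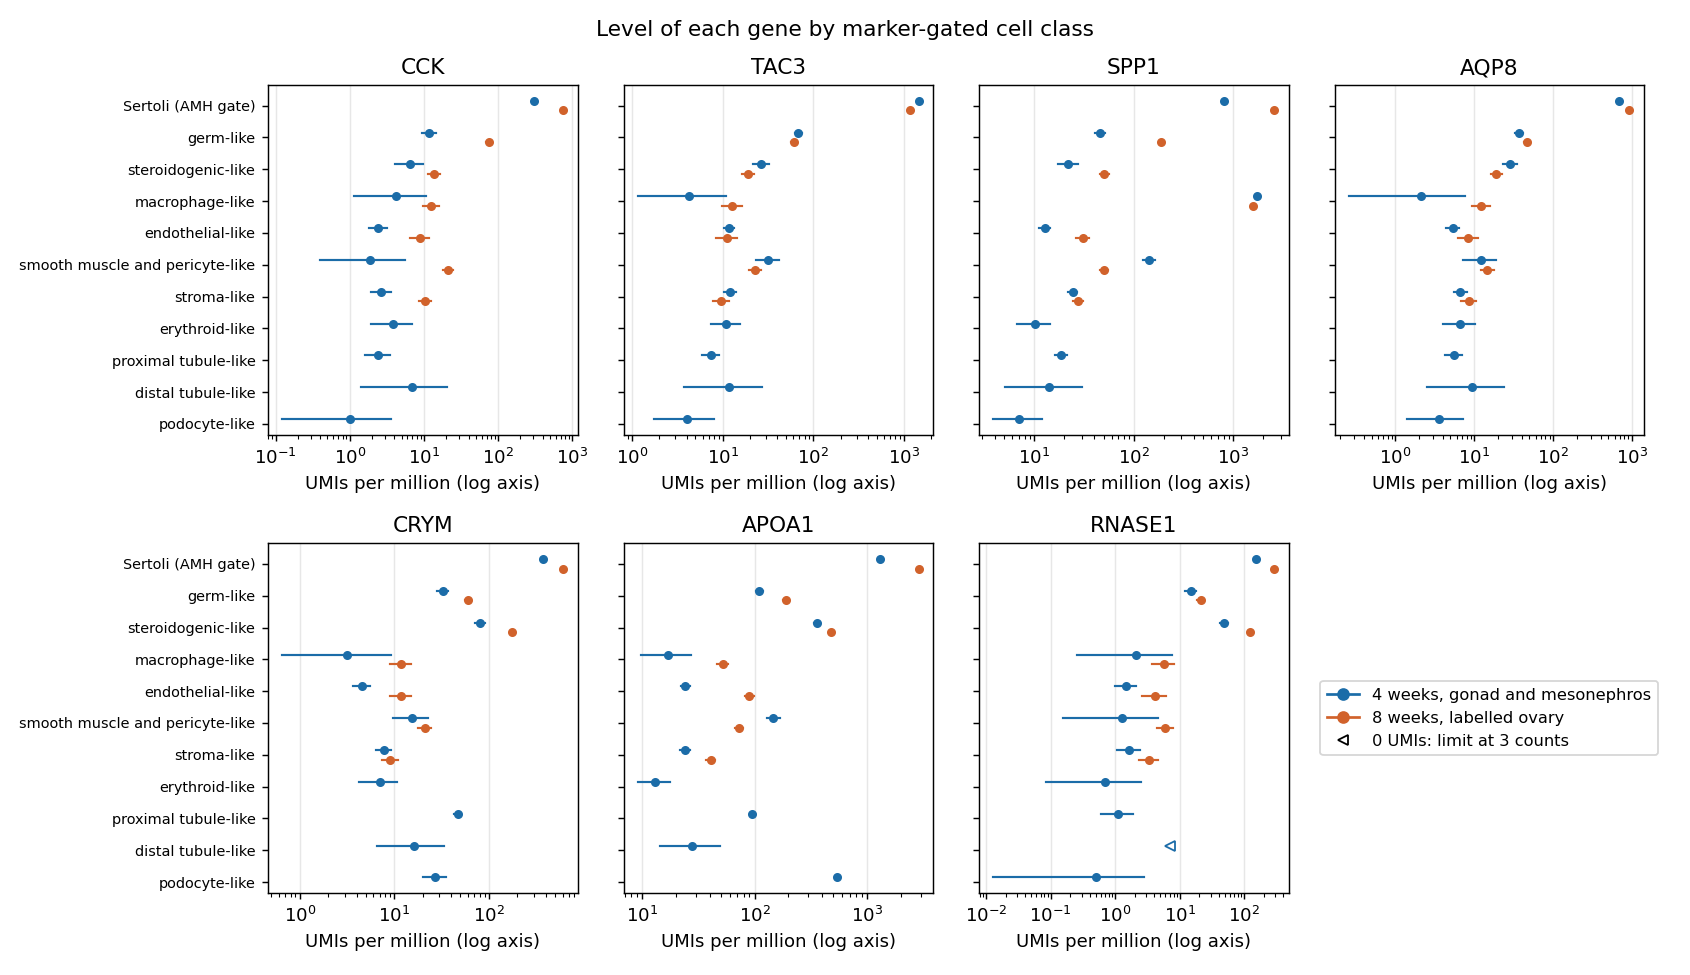
Level of each gene in cells gated by markers, in CPM on log axes, for the 4-week library (blue) and the 8-week library labelled ovary (orange), with bars for the 95% counting interval and an open triangle for the limit that 0 UMIs allow. Gated cells stand highest for every gene except SPP1 at 4 weeks, where macrophage-like cells at 1731 CPM lie above them, and classes under 50 cells in a library are not drawn.

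The 4-week library gave 11 classes and the 8-week library 7, with cells that passed several class gates or none left aside. Cells that passed none were 36.6% and 63.6% of the barcodes, with median depths of 3914 and 4528 UMIs. At 8 weeks they held 2070 of the 3741 TAC3 UMIs of all ungated cells. The order of classes given here covers the classed cells only. CCK, TAC3 and AQP8 were second highest in germ-like cells, after the gated cells. CCK stood there at 11.8 CPM (9.44 to 14.6) and 74.9 CPM (69.8 to 80.3), TAC3 at 68.1 and 61.4 CPM, and AQP8 at 37.2 and 47.2 CPM. Germ-like cells also held AMH 4.40-fold (3.93 to 4.93) and 2.84-fold (2.48 to 3.26) above endothelial-like cells. Per 100 AMH UMIs they held 10.7 (8.46 to 13.4) CCK UMIs at 4 weeks, where gated cells held 11.1 (10.7 to 11.4). At 8 weeks they held 58.9 (53.9 to 64.3), where gated cells held 22.6 (22.2 to 23.0). TAC3 stood at 61.7 (55.03 to 69.2) against 52.9 of the gated cells at 4 weeks and at 48.3 (43.9 to 53.02) against 34.9 at 8 weeks, and AQP8 at 33.8 (29.3 to 38.8) against 25.005 and at 37.1 (33.4 to 41.1) against 27.8. In germ-like cells the ratio to AMH thus lay above that of gated cells for TAC3 and AQP8 in both libraries and for CCK at 8 weeks. Cells past the AMH gate were left out of this class, so its AMH, the denominator, was limited by construction. For TAC3, cells with no class gate also lay above, at 76.6 and 41.7, and endothelial-like cells below, at 46.5 and 24.7. For CCK at 8 weeks, smooth-muscle- and pericyte-like cells at 38.6 (32.0 to 46.4) and cells with no class gate at 36.3 also lay above. Endothelial-like cells stood at 19.5 (14.1 to 26.6), and steroidogenic-, macrophage- and stroma-like cells at 24.4, 23.0 and 23.8. At 8 weeks 11 of the 53 ungated cells with at least 3 CCK UMIs and at least 5 per 10000 passed the germ gate. Germ-like cells had a median of 18892.5 and 16553.5 UMIs, and gated cells that also met the germ gate 45975 and 36990, deeper than gated cells as a whole. The part of droplets with 2 cells in the germ-like values was not tested.

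CRYM and RNASE1 were next highest in steroidogenic-like cells in both libraries, and APOA1 in podocyte-like cells at 4 weeks and in steroidogenic-like cells at 8 weeks. SPP1 had its second class in macrophage-like cells at 8 weeks. At 4 weeks smooth-muscle- and pericyte-like cells held SPP1 at 142 CPM (124 to 162) and APOA1 at 147 CPM (129 to 167). At 8 weeks they held 50.2 and 73.1 CPM, so that in these cells both genes were lower in the library labelled ovary.

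Some ungated cells held much of a gene, taken as at least 3 UMIs and at least 5 UMIs per 10000. For TAC3 there were 56 and 58 such cells, of which 36 and 48 had 5 to 10 AMH UMIs per 10000, just under the gate. For SPP1 there were 143 and 558, of which 62 and 376 were macrophage-like. The 213 and 317 such cells for APOA1 included 38 and 120 steroidogenic-like cells and, at 4 weeks, 32 podocyte-like cells. RNASE1 had 0 such cells at 4 weeks and 33 at 8 weeks, 22 of them steroidogenic-like.

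The gate cuts a range of AMH levels, with 149 and 554 cells at 5 to 10 AMH UMIs per 10000 and 287 and 522 at 10 to 20. Just outside it, at 8 to 10, TAC3 stood at 592 and 458 CPM, and just inside, at 10 to 12, at 793 and 577 CPM. CCK stood at 122 and 377 CPM just outside and at 123 and 510 CPM just inside. SPP1 stood at 590 and 1019.6 CPM just outside and at 726 and 1483 CPM just inside. AQP8 stood at 352 and 304 CPM against 291 and 380 CPM, and CRYM at 182 and 215 against 202 and 265 CPM. APOA1 stood at 803 and 1049 CPM against 1080 and 1594 CPM, and RNASE1 at 41.3 and 139 against 57.0 and 124 CPM. Cells just outside the gate thus held each gene well above the mean of all ungated cells, and AQP8 at 4 weeks and RNASE1 at 8 weeks were not lower there than just inside.

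Cells just under the gate weigh on the ratios to other cells. With a gate of at least 20 AMH UMIs per 10000 the CCK ratio was 18.5 at 4 weeks and 15.0 at 8 weeks, and with a gate of at least 5 it was 111 and 45.4. For TAC3 the range over these settings was 21.2 to 118 at 4 weeks and 20.3 to 62.4 at 8 weeks, and for AQP8 at 4 weeks 21.7 to 105. A gate on at least 3 of the 9 other Sertoli markers, which does not use AMH, put AQP8 at 23.7-fold and APOA1 at 14.5-fold above other cells at 8 weeks.

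Within the gated cells, 6 of the 7 genes were higher the more AMH the cells held, in both libraries. TAC3 stood at 1058, 1528 and 2024 CPM at 4 weeks in cells with 10 to 20, 20 to 40 and over 40 AMH UMIs per 10000, and at 788, 1146 and 1645 CPM at 8 weeks. CCK stood at 246, 309 and 402 CPM and at 617, 740 and 937 CPM. AQP8 stood at 479, 730.1 and 976 CPM and at 514, 924 and 1432 CPM. At 10 to 20 the AQP8 levels of the 2 libraries lay close, and at over 40 the 8-week level was higher.

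SPP1 went another way at 4 weeks. It stood there at 741 CPM (719 to 763), 840 CPM (820.4 to 859) and 851 CPM (817 to 886), so that the last 2 bands overlapped in counting error. At 8 weeks it stood at 1567 CPM (1538 to 1596), 2538 CPM (2503 to 2572) and 3816 CPM (3767 to 3866). APOA1 stood at 977, 1356 and 1813 CPM at 4 weeks and at 1529.6, 2787 and 4642 CPM at 8 weeks. CRYM stood at 256, 405 and 510.2 CPM and at 357, 603 and 901 CPM, and RNASE1 at 97.8, 170.1 and 206 CPM and at 200.3, 285 and 390.1 CPM. In cells with at least 5000 UMIs the SPP1 bands were 737, 839 and 845 CPM at 4 weeks and 1602, 2547 and 3802 CPM at 8 weeks, so the pattern was also present without shallow barcodes.

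**Figure D2:**
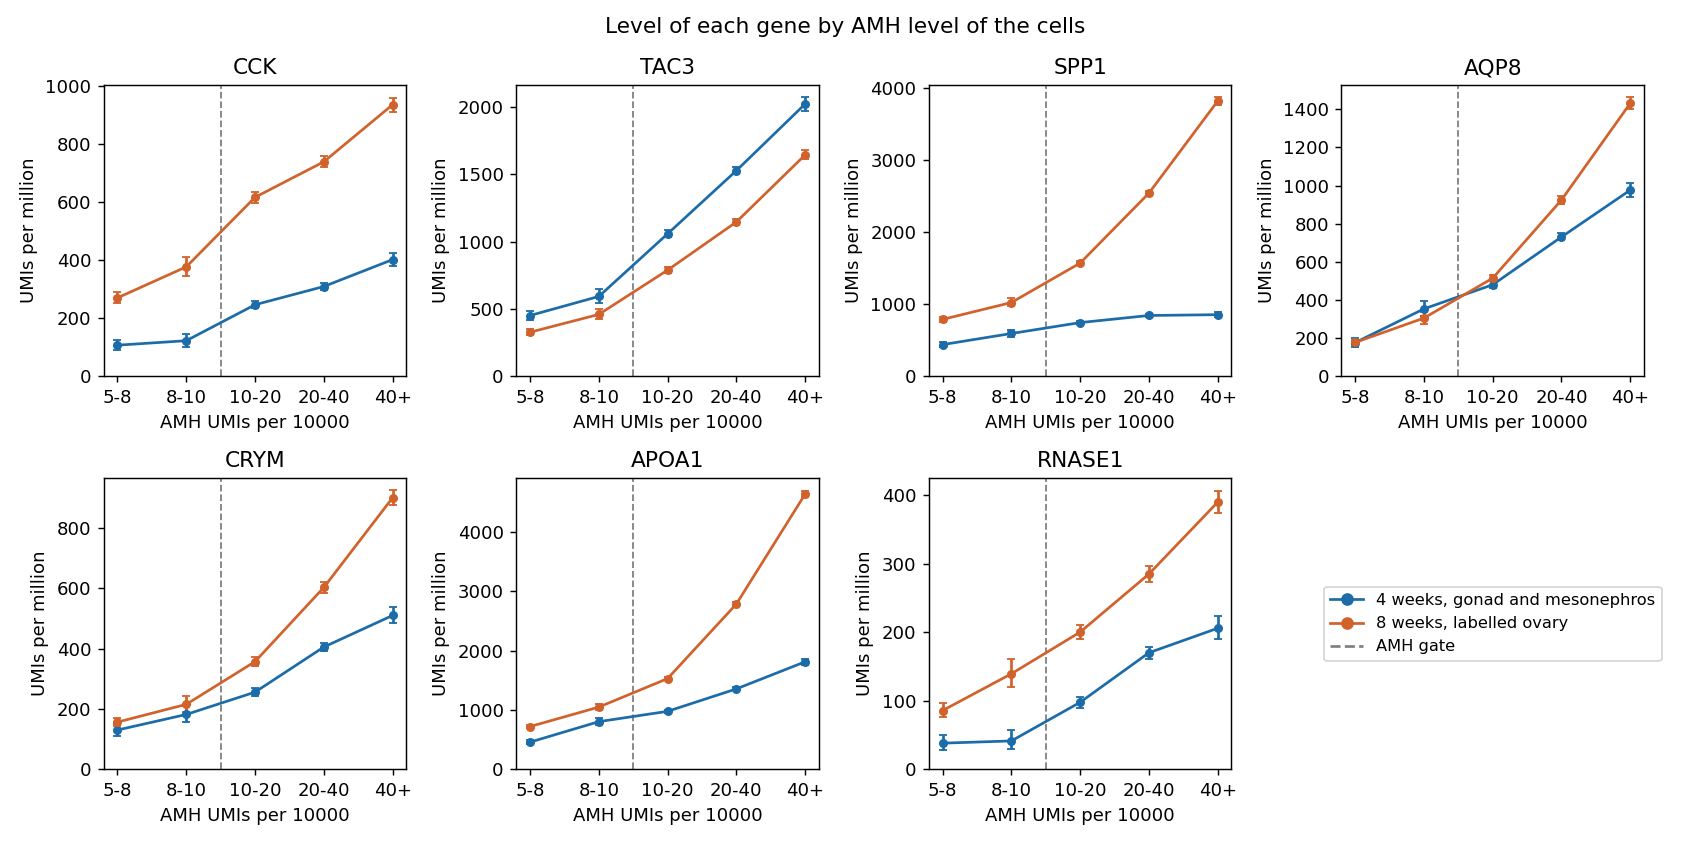
Level of each gene in CPM (vertical axis) against the AMH level of the cells in UMIs per 10000 (horizontal axis) for the 4-week (blue) and 8-week (orange) libraries, with bars for the 95% counting interval and a dashed line at the gate. SPP1 at 4 weeks stays between 741 and 851 CPM inside the gate while at 8 weeks it stands at 1567 to 3816 CPM, and the other genes stand higher at higher AMH in both libraries.

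Most deep gated cells held every one of the genes. Among the 665 and 883 gated cells with at least 5000 UMIs, all 7 were found in 69.9% and 85.7%, and no cell lacked all 7. The share of these cells with no UMI was 0.301% and 1.13% for TAC3, 0.451% and 0% for APOA1, and 4.36% and 0.227% for SPP1. For CCK it was 16.5% and 5.10%, and for RNASE1 14.1% and 8.15%. Over all gated cells, shallow ones included, 3.49% (2.37 to 4.94) and 10.4% (8.92 to 12.1) had no UMI of any of the 7. Of the gated cells, 22.7% and 39.7% had fewer than 5000 UMIs, and in these TAC3 stood at 1228 and 572 CPM, against 1453 and 1190.5 CPM in the deeper ones. CCK was also lower in the shallow cells in both libraries. APOA1 was higher there, at 1682 and 3237 CPM against 1290.5 and 2868 CPM. SPP1, AQP8, CRYM and RNASE1 were higher in the shallow cells at 4 weeks and lower at 8 weeks.

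From cell to cell, TAC3 at 4 weeks had the narrowest spread relative to its median of the 7 genes. It also had the highest median of the 7 at 4 weeks, and counting error is relatively smaller at higher counts. Among the deep gated cells the 25th, 50th and 75th percentiles of TAC3 were 11.0, 15.0 and 19.2 UMIs per 10000 at 4 weeks and 7.32, 11.3 and 16.6 at 8 weeks. For CCK they were 0.742, 2.16 and 4.49, with 8.28 at the 90th percentile, and then 3.14, 6.70 and 11.6, with 16.6. RNASE1 had 0.603, 1.29 and 2.27 with 3.70, and then 1.29, 2.72 and 4.40 with 6.91. For SPP1 they were 3.07, 6.07 and 11.1, with 19.8 at the 90th percentile, and then 14.2, 24.3 and 38.7, with 56.6. APOA1 had values of 5.83, 10.2 and 17.4 and a 90th percentile of 32.1, and then 14.6, 26.0 and 42.3, with 71.1. AQP8 had 3.92, 6.63 and 10.3 with 14.9, and then 4.05, 8.22 and 13.6 with 20.5, and CRYM 2.36, 3.69 and 5.53 with 7.62, and then 3.66, 5.84 and 8.87 with 12.95. TAC3 itself had 90th percentiles of 23.7 and 22.7. For CCK, SPP1 and APOA1 the 25th percentile at 8 weeks lay above the 4-week median, whereas for TAC3 it lay below the 4-week 25th percentile.

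**Figure D3:**
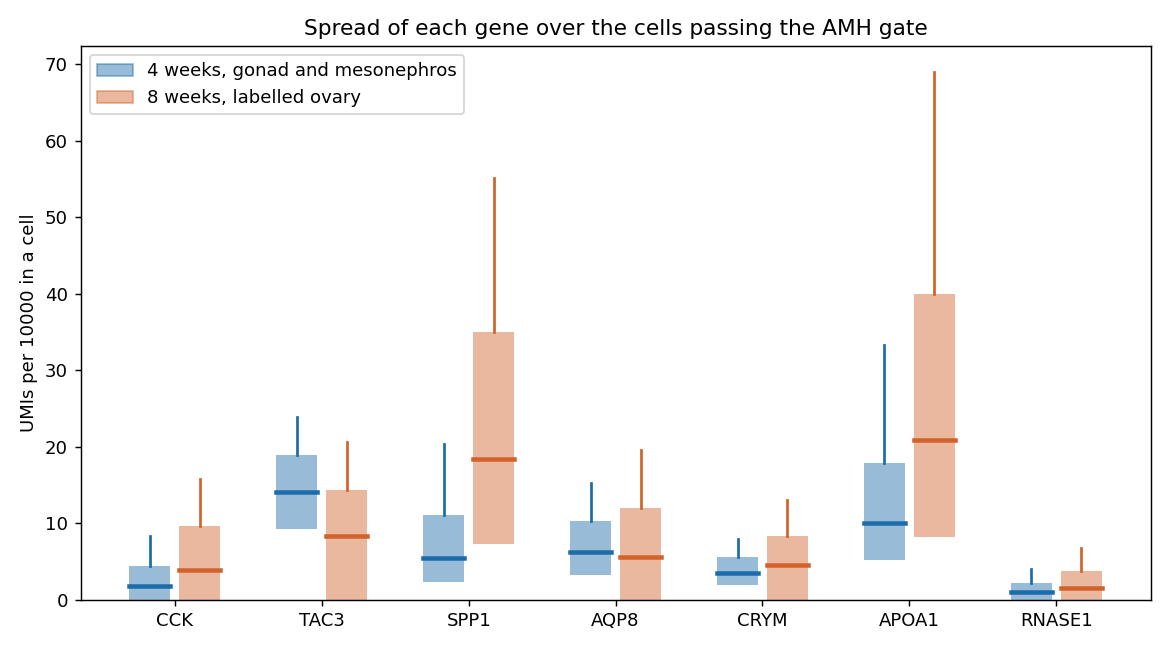
UMIs per 10000 of each gene in single gated cells (vertical axis) in the 4-week (blue) and 8-week (orange) libraries, where boxes span the 25th to 75th percentile, thick lines are medians and thin lines reach the 90th percentile. All 860 and 1465 gated cells enter, shallow ones included, and SPP1 and APOA1 at 8 weeks reach furthest, to 55.1 and 68.9.

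The genes varied together across deep gated cells only in part, as far as counts per cell can show. Counting error lowers such correlations, most for genes with few UMIs, such as RNASE1 with medians of 1.29 and 2.72 UMIs per 10000. How far it did so was not tested. Of the 21 pairs, 20 had a correlation above 0 at 4 weeks and 21 at 8 weeks, with medians of 0.20 and 0.34 (Pearson's r of log levels over 665 and 883 cells, which share a library and depth). SPP1 and APOA1 had the highest r at 8 weeks, 0.73, and 0.42 at 4 weeks, where AQP8 and CRYM had 0.41. By Spearman's rho the 4-week values were 0.39 for SPP1 and APOA1, 0.46 for AQP8 and CRYM and 0.40 for TAC3 and AQP8, so no pair led by both measures at 4 weeks. CCK and APOA1 were the pair with the lowest r, at −0.22 and 0.094. With AMH itself, TAC3 had r of 0.53 and 0.53, and SPP1 0.041 and 0.53. Over all gated cells the SPP1 and AMH value was 0.067 and 0.54.

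Between the libraries, 6 of the 7 genes stood higher at 8 weeks in gated cells and TAC3 lower. At least 2-fold higher were 3 of 7, CCK, SPP1 and APOA1, where 8.73% of all 20383 features tested were, and 0 of 7 were at least 2-fold lower, where 12.2% of all features were. The 8-week over 4-week ratio was 3.18 (3.12 to 3.24) for SPP1, 2.49 (2.41 to 2.57) for CCK and 2.22 (2.18 to 2.25) for APOA1. It was 1.89 (1.81 to 1.98) for RNASE1, 1.63 (1.58 to 1.67) for CRYM and 1.36 (1.33 to 1.39) for AQP8. TAC3 stood at 0.805 (0.791 to 0.819), that is 1.24-fold higher at 4 weeks. AMH, which set the gate, had a ratio of 1.22 (1.204 to 1.23). The median log2 ratio of the 7 genes was 0.92 and that of all features −0.10, and the genes are no sample of all features, since high levels in gated cells chose them.

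No alternative turned a direction, with 10 other settings of the gate, the cell filter and the weighting. With each cell weighted equally the AQP8 ratio was 1.07, the CCK ratio 2.06 and the TAC3 ratio 0.646. SPP1 ranged from 2.85 to 3.66 and APOA1 from 2.05 to 2.44.

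**Figure D4:**
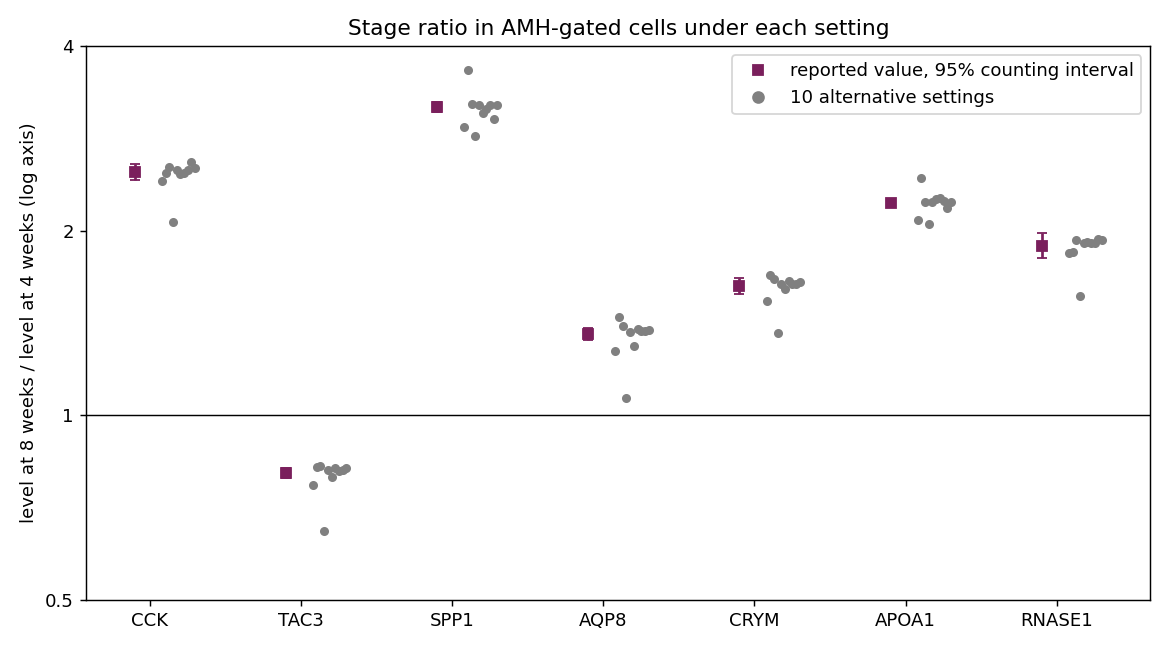
Level at 8 weeks divided by level at 4 weeks in gated cells on a log axis, with the reported value and its 95% counting interval (squares) and the value under each of 10 alternative settings (grey points). TAC3 lies below 1 in every setting, the other 6 genes above 1, and AQP8 comes nearest to 1 at 1.07.

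Several of these differences between the libraries were also present in cells outside the gate. In endothelial-like cells CCK had a ratio of 3.59 (2.37 to 5.45), APOA1 3.71 (3.27 to 4.21), SPP1 2.40 (1.96 to 2.92) and CRYM 2.61 (1.87 to 3.62). TAC3 there had 0.948 (0.705 to 1.26), which includes 1. The CCK value rests on 49 UMIs in each library. Per 100 AMH UMIs, endothelial-like cells held 9.70 and 19.5 CCK UMIs, where gated cells held 11.1 and 22.6. AMH itself had a ratio of 1.86 (1.79 to 1.94) over all ungated cells. Whether these UMIs came from the cells themselves was not tested. In germ-like cells CCK had 6.34 (5.07 to 8.03) and SPP1 4.09 (3.64 to 4.61). In macrophage-like cells, whose SPP1 is high, the SPP1 ratio was 0.914 (0.866 to 0.964). In smooth-muscle- and pericyte-like cells SPP1 and APOA1 also went the other way, with ratios of 0.354 (0.299 to 0.419) and 0.498 (0.426 to 0.582). CRYM and RNASE1 had ratios of 2.16 (1.90 to 2.47) and 2.52 (2.14 to 2.98) in steroidogenic-like cells.

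Gated cells with cycling markers held less TAC3 and AQP8 per UMI than the rest, and also less AMH, CCK and CRYM. These 58 and 97 cells held TAC3 at 1185 and 863 CPM, against 1475 and 1199 CPM, and AQP8 at 442 and 676 CPM, against 709.8 and 957 CPM. SPP1 stood at 796 and 2307 CPM against 809 and 2598 CPM. AMH stood at 2364 and 2875 CPM against 2776 and 3387 CPM. CCK stood at 256 and 698 CPM against 307 and 760 CPM, and CRYM at 323 and 531 CPM against 376 and 612 CPM. RNASE1 at 4 weeks went the other way, at 176 against 149 CPM.

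Genes that cut, store or receive these peptides did not follow them as a group. Of 15 genes for processing and storing peptide hormones, 13 had at least 10 UMIs in the gated cells. By the rule of at least 2-fold in both libraries, which 7.46% of features met upward and 11.7% downward, 1 was higher and 1 lower. Chromogranin A (CHGA), a protein of secretory granules, was the higher one, at 17.7 and 29.0 CPM against 2.55 and 9.01 in other cells, and the gated cells were its highest class. Carboxypeptidase E (CPE), which trims the cut ends, was the lower one, at 25.7 and 36.1 CPM against 54.2 and 113. The convertase PCSK5 stood at 183 and 79.8 CPM, near the 149 and 87.9 of other cells, and PAM, which amidates peptide ends, at 17.9 and 26.3 CPM against 50.2 and 38.3. Over its measured members the median log2 ratio of the list was −0.58 and −0.0045, beside −0.23 and −0.19 over all features.

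Receptors for the 2 peptides were scarce in gated cells. Of 10 partner genes found, 5 were measured there, none was at least 2-fold higher in both libraries and 2 were lower, TACR3 at 0.516 and 1.03 CPM against 2.64 and 2.22, and the related precursor TAC1 at 0.401 and 0.750 against 1.27 and 1.61. TACR3 was highest in stroma-like cells, at 7.61 and 2.93 CPM. CCKBR stood at 1.89 and 0.984 CPM in gated cells and was highest in germ-like cells, at 14.5 and 8.80 CPM. The list's median log2 ratio was −1.66 and −0.91.

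Of 14 receptors and relatives of osteopontin, 10 were measured, none was higher and 5 were lower: the integrin subunits ITGA4, ITGA5, ITGA8 and ITGA9 and the hyaluronan receptor CD44. CD44 stood at 9.29 and 8.11 CPM in gated cells and at 335 and 234 CPM in macrophage-like cells, its highest class. ITGA9 stood at 16.1 and 38.2 CPM in gated cells and was highest in stroma-like cells, at 323 and 269 CPM. ITGB1, the common beta chain, stood at 454 and 307 CPM against 516 and 303 in other cells. The list's median log2 ratio was −1.31 and −0.89.

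A second water channel shared the pattern of AQP8. Of 11 other aquaporins found, 7 were measured, 2 were higher and 2 lower. AQP5 reached 49.2 CPM (46.0 to 52.6) at 4 weeks and 83.2 CPM (79.4 to 87.2) at 8 weeks in gated cells against 2.45 and 4.38 CPM in the others, 20.1-fold (17.4 to 23.2) and 19.0-fold (17.3 to 20.9) higher. AQP6 was the other, at 0.631 and 0.750 CPM from 11 and 16 UMIs. AQP1, the channel of red cells and vessels, and AQP7, which also passes glycerol, were lower.

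Genes that handle the ligand of CRYM were not raised with it in gated cells. Of 9 thyroid hormone genes, 8 were measured, none was higher in both libraries and the deiodinases DIO2 and DIO3 were lower. DIO2 stood at 0.631 and 0.609 CPM against 2.39 and 1.49 in other cells, and DIO3 at 0.459 and 0.609 CPM against 1.23 and 1.44. The list's median log2 ratio was −1.07 and −0.61, below the −0.23 and −0.19 of all features.

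For APOA1, other genes of high-density lipoprotein stood apart from it. Of 11, 10 were measured, none was higher in both libraries and 3 were lower, APOE at 46.7 and 224 CPM against 350.3 and 995, the receptor SCARB1 at 32.5 and 23.9 against 67.3 and 51.4, and the transfer protein PLTP at 7.51 and 26.4 against 45.3 and 117. SCARB1 was highest in steroidogenic-like cells, at 714 and 359 CPM. ABCA1, which loads cholesterol onto APOA1, stood at 182 CPM against 43.7 at 4 weeks and at 48.3 against 45.5 at 8 weeks.

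Among 9 other ribonuclease genes 6 were measured, 1 was higher and 2 lower. RNASE12 stood at 7.05 and 4.55 CPM in gated cells against 0.191 and 0.456 CPM, and the gated cells were its highest class. RNASE4 and RNASE6 were lower, and RNASE6 was highest in macrophage-like cells, at 375 and 662 CPM.

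The genes closest to CCK and TAC3 across the 18 class-by-library sums included AMH and AQP8, and those closest to SPP1 did not. By Pearson's r of log2(CPM + 1) over 13719 features, CCK was closest to WNT6 (0.96), a WNT ligand, UCMA (0.96), AMH (0.94), AQP8 (0.93) and CHODL (0.93). TAC3 was closest to AQP8 (0.98), AMH (0.98), the steroid enzyme HSD3B2 (0.98), the chemokine CXCL11 (0.97) and TMEM212 (0.97). SPP1 was closest to BCL10 (0.91), RUBCNL (0.90), CD83 (0.90), PLXNC1 (0.87) and SMNDC1 (0.87). These sums share libraries and the gated cells were picked by AMH, so the values are descriptions. In gated cells WNT6 stood at 143 and 193 CPM, against 0.795 and 2.499 CPM in endothelial-like cells, and CD83 stood at 387 and 90.03 CPM, against 8.25 and 11.96 CPM.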

How the data were processed

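Raw UMI counts (whole numbers) were used as deposited by the authors. The software was Cell Ranger, version 7.1.0 per the file headers and version 2.1.1 per the submitters' processing notes, while a DNBelab droplet kit is named per the labels' protocols. The genome build is not given in the sources used here. The genes and lists were chosen with earlier results of these data known.

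A minimum of 200 genes per barcode removed 26 and 3 barcodes. No doublet caller was run. Of 21981 features with a locus identifier, 799 were named through a RefSeq gene table. Cells with at least 10 AMH UMIs per 10000 formed the gated class. A cell joined another class when at least 3 of its markers, each with at least 2 UMIs and at 2-fold over the library's mean level, were on for that class alone. This scoring was set after the data were seen. Levels are summed UMIs per 1000000 with exact Poisson intervals, ratios carry exact conditional binomial intervals, and shares carry Clopper-Pearson intervals at 95%. For 0 UMIs the limit is that of 3 counts. A feature needed at least 10 UMIs in the groups compared. The ratio code was checked on simulated data with seed 1. Python 3.11.15, numpy 2.4.6, scipy 1.17.1 and pandas 2.3.3 were used.

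Named genes are the 7 chosen ones, the genes of 7 related lists at least 2-fold higher or lower in gated cells in both libraries, 1 further gene per list by its level, and the 5 features closest to CCK, TAC3 and SPP1. PAM and ABCA1 were added after their values were seen. For 1 of the related lists, the further gene chosen by its level is not reported here.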

Additional observations from a re-analysis of the deposited data

How the results depend on the processing

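Over 10 alternatives, of which 3 were chosen after seeing the data (at least 3 AMH UMIs, a gate on Sertoli markers other than AMH, at least 5000 UMIs), 0 values reversed. The median gated over other ratio of the 7 genes was 35.3 at 4 weeks and 24.7 at 8 weeks. With a gate of 5 AMH UMIs per 10000 it was 39.5 and 27.3, with a gate of 20 it was 18.5 and 15.0, and with Sertoli markers other than AMH 20.3 and 14.5. With each cell weighted equally it was 46.1 and 23.1, and with cells of another class left out 39.5 and 27.7. At 8 weeks it was 19.5 with a SOX9 UMI required, 25.3 with at least 1000 genes and 30.8 with the top 6% of barcodes by UMIs left out. The median 8 over 4 week ratio of 1.89 was 1.56 with each cell weighted equally. With at least 100 UMIs per feature the shares past 2-fold were 8.74% and 7.68% higher and 21.9% and 19.2% lower in gated cells, and 6.62% higher and 7.62% lower at 8 weeks. Depth limits the gate, since 53 and 291 gated cells rest on 1 or 2 AMH UMIs. No paired analysis was possible because each stage is 1 library.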
